A study of Mus musculus with 5 samples.

Results

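Hecw1 was examined as a locus, in the 7 bins of 50 kb that hold it on mouse chromosome 13 from 14300001 to 14650000 (build mm9), together with the 20 bins of 1 Mb on either side. The quantity was PC1, the first principal component of a Hi-C interaction matrix. A positive PC1 marks compartment A, the open and gene-rich part of the nucleus, and a negative one compartment B, the closed and gene-poor part. The 7 bins were picked by their position, and that position had been set earlier from these data as a stretch where PC1 was lower in Late than in Basal. All 7 bins and all 40 flank bins had a value in every library, out of 50542 such bins in the series and 2307 on chromosome 13.

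Hi-C ligates and sequences DNA fragments that are neighbours in the folded genome. It was made from neuronal nuclei of the mouse hippocampus, sorted by flow cytometry after staining for NeuN and GFP, with 2 Basal libraries, 1 Early library and 2 Late libraries. All 5 carried the same genotype (+/+) and strain label, ArcCreERT2 x R26R-STOP-floxed with a yellow fluorescent protein (eYFP) reporter. In this line a tamoxifen-dependent Cre is driven by Arc, a gene switched on by neuronal activity, so neurons that are active when 4-hydroxytamoxifen is given carry the reporter from then on. The treatment label is also the same for all 5 libraries, with a foot shock and tissue collection on day 0 and no recall. The protocol describes collections at 1.5 to 2 h and at 5 days after contextual fear conditioning, but the labels do not tie these times to Basal, Early or Late, which rest on the titles. Each group was made from 100000 nuclei pooled from 2 animals. The age and sex of the mice are not in the labels.

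Hecw1, also named Nedl1, encodes an E3 ubiquitin ligase of the HECT class. Such an enzyme takes ubiquitin from a carrier protein onto its own catalytic domain and passes it to a substrate, which is then often degraded. Hecw1 belongs to the Nedd4 family, whose members recognise substrates through WW domains, and it is expressed mainly in neurons. The human protein is known for binding mutant forms of the superoxide dismutase SOD1 and the Wnt signalling protein Dvl1. A gene in compartment A tends to lie among active chromatin and one in compartment B among silent chromatin, but a compartment score measures contacts and not transcription.

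In the RefSeq annotation of GRCm38.p6 Hecw1 spans 296852 bases, which is most of the length of the 7 bins (350 kb). That annotation is of another build than the files, so it was used for names and gene order only, and no neighbour was assigned to a bin. On the proximal side, toward the centromere, the next protein-coding genes are Arid4b, whose product works with histone deacetylase complexes, Ggps1, an enzyme of isoprenoid synthesis, and Tbce, a tubulin folding cofactor. They are followed by B3galnt2, a glycosyltransferase, Gng4, a G protein subunit, Lyst, a regulator of lysosomal traffic, and Nid1, a protein of basement membranes. On the distal side the long noncoding RNA gene Gm30893 overlaps Hecw1. It is followed by Mrpl32, a mitochondrial ribosomal protein, Psma2, a subunit of the proteasome core, AW209491 and several noncoding genes before Gli3, a transcription factor of the Hedgehog pathway.

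Promoter windows of Arid4b, Gm30893 and Psma2 are printed, from 250 bases before to 50 bases after the annotated start (RefSeq, GRCm38.p6, chromosome 13, plus strand). They were not placed relative to the borders of the 7 bins. Capitals mark each CG dinucleotide, the site of DNA methylation in mammals. The Gm30893 window, 1 of 2 listed for that gene, lies within the annotated span of Hecw1. The Psma2 window shares 296 of its 300 bases with that of Mrpl32 on the other strand.
Arid4b: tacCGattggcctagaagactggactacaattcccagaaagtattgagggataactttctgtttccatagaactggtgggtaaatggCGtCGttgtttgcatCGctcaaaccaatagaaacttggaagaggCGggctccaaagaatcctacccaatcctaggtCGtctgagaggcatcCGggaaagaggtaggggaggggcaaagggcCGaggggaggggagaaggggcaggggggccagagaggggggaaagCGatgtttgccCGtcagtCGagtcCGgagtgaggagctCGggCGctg
Gm30893: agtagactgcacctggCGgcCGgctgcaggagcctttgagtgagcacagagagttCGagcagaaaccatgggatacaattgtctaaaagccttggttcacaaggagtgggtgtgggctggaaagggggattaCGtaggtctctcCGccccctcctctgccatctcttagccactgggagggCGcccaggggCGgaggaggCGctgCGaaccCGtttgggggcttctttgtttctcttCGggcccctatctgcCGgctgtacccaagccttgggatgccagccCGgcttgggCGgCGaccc
Psma2: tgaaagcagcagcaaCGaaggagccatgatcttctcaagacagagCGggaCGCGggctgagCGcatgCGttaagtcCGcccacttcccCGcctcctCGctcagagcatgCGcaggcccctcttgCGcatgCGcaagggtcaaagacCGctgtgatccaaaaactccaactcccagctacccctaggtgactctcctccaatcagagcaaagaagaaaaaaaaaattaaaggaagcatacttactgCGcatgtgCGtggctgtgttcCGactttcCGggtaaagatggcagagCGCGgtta
The searched motif was CG, which reads the same on both strands. The windows hold 14 (Arid4b), 15 (Gm30893) and 19 (Psma2) of them, against a median of 7 over the 32851 windows of the table, of which 94.6% hold at least 1. At least as many CG were held by 36.3% of all windows for Arid4b, by 34.6% for Gm30893 and by 28.1% for Psma2. These counts describe the letters only, since a bin of 50 kb does not resolve a promoter.

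In Basal neurons the whole Hecw1 locus lay in compartment A. Its mean PC1 over the 7 bins was 0.546 and 0.534 in the Basal libraries, -0.368 in the Early library, with -0.405 and -0.532 in the Late libraries. Both Basal values were therefore positive and close together, and the Early and Late values were negative. The Basal mean was 0.540 ± 0.00827 and the Late mean -0.469 ± 0.0898 (SD, n = 2 each), a difference of Late minus Basal of -1.01. Because the locus was chosen for this difference, it is given as a description with no test.

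**Figure D1:**
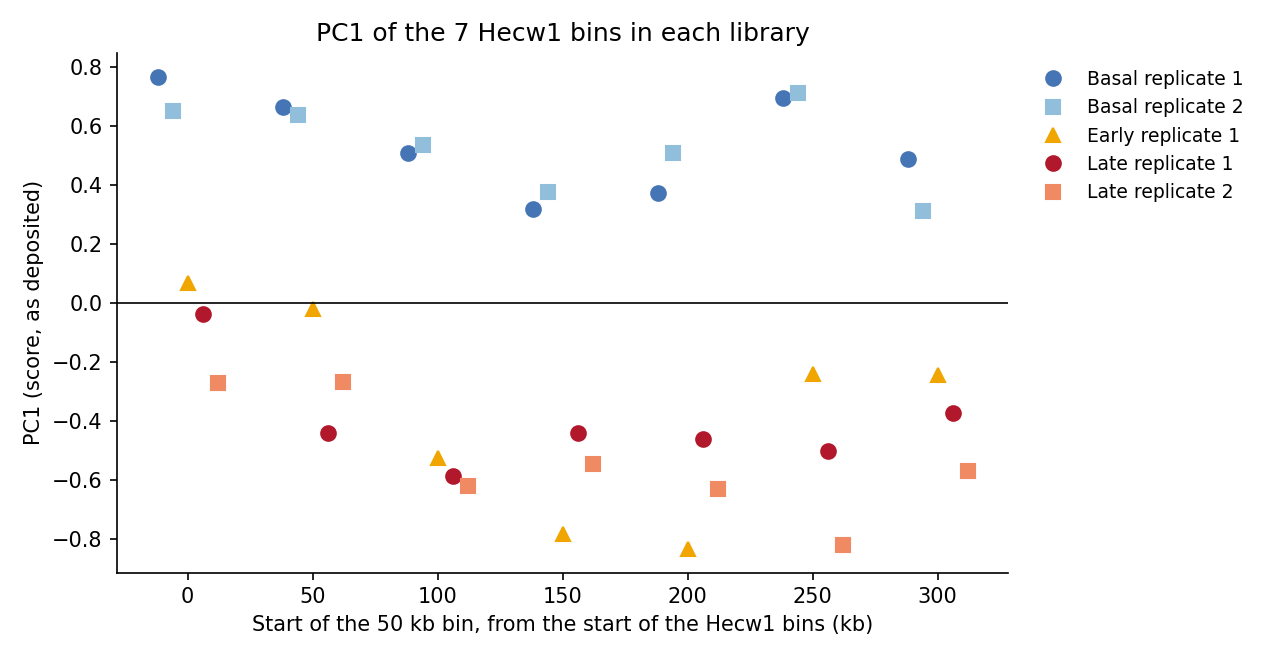
PC1 as deposited (vertical axis, a score) of each of the 7 bins of 50 kb that hold Hecw1, by distance of the bin from the start of the locus in kb (horizontal axis), with 1 point per library. The Basal points lie between 0.314 and 0.768, and every Late point lies below 0. The Early point lies just above 0 in the first bin, at 0.0700, and below 0 in the other 6.

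Bin by bin, the first, from 14300001, had a PC1 of 0.768 and 0.650 in Basal, 0.0700 in Early, with -0.0377 and -0.271 in Late. The second, from 14350001, had 0.665 and 0.637 in Basal, -0.0215 in Early, with -0.441 and -0.268 in Late. At this proximal end of the locus Early stayed close to the border between A and B, and Late lay below it.

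The middle of the locus differed most between Early and Basal. The bin from 14400001 had a PC1 of 0.510 and 0.537 in Basal, -0.526 in Early, with -0.586 and -0.619 in Late. The bin from 14450001 had 0.321 and 0.378 in Basal, -0.783 in Early, with -0.440 and -0.546 in Late. The bin from 14500001 had 0.372 and 0.509 in Basal, -0.834 in Early, with -0.459 and -0.631 in Late. These hold the lowest Early values of the locus, below both Late libraries in the bins from 14450001 and 14500001.

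At the distal end the order of Early and Late turned round. The bin from 14550001 had a PC1 of 0.697 and 0.714 in Basal, -0.239 in Early, with -0.502 and -0.822 in Late, which includes the lowest Late value of the locus. The last bin, from 14600001, had 0.487 and 0.314 in Basal, -0.244 in Early, with -0.371 and -0.571 in Late. Early lay above both Late libraries in 5 of the 7 bins and below both in 2.

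All 7 bins were in A in both Basal libraries and in B in both Late libraries, a pattern found in 2.62% of the 47652 bins analysed. The rule used that contrast, so nothing is read from the count. In 6 of the 7 bins Early was also in B. Over all bins, 4.09% were in A in both Basal libraries and in B in Early, and 1.4% were in B in both Late libraries as well. Overlapping windows of 100 kb were used for PC1, so neighbouring bins share reads and the 7 bins are not independent.

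The locus was more even in Basal and Late than in Early. Over its 7 bins PC1 spanned 0.448 and 0.400 in the Basal libraries, 0.904 in Early, with 0.548 and 0.554 in the Late libraries. Bin-to-bin noise over the genome, estimated from differences between libraries, was 0.127 and 0.129 PC1 units in Basal, 0.226 in Early, with 0.114 and 0.204 in Late replicates 1 and 2. The part of the higher noise in the wider Early profile was not tested. Ranked among the 2307 bins of chromosome 13 in each library, the median bin of the locus stood at percentile 64.8 and 65.8 in Basal, 39.7 in Early, with 39.7 and 34.2 in Late. The locus thus sat in the upper part of the chromosome's own range in Basal and in the lower part in Early and Late, also without regard to the scale of PC1.

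Early differed from Basal over the whole locus. A bin was called at a Benjamini-Hochberg adjusted p under 0.05 in limma over all 47652 bins. Of the 7 Hecw1 bins, all 7 were called lower in Early than in Basal, and 9.98% of all bins were. The largest difference of Early minus Basal was -1.27 (SE 0.153, limma adjusted p 0.00187), in the bin from 14500001. The smallest was -0.639 (SE 0.159, limma adjusted p 0.0251), in the bin from 14300001, and the mean over the 7 bins was -0.908. Over all bins the median difference was 0.000784 and the median absolute difference 0.268. Early was not among the libraries that set the position of the locus, but the Basal libraries were, so this is not an independent test of it. The fit takes the spread of the single Early library from the replicates of the other groups. Without Basal replicate 1, and without Basal replicate 2, the mean over the 7 bins was -0.902 and -0.914. Fewer of the 7 bins were then called, and fewer of all bins were. Weighting libraries by local noise left 4 calls, and keeping all sequences as deposited left 3. In either direction weights and all sequences kept called 7.23% and 4.12% of all bins, against 19.9% in the main fit.

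No bin of the locus was called between Late and Early in limma, against 12.7% of all bins in either direction, and 1 of the 7 had an unadjusted p under 0.05. Of all 47652 bins, 7333 higher and 7516 lower in Late had such a p. The differences of Late minus Early ran from -0.423 (SE 0.168) in the bin from 14550001 to 0.290 (SE 0.143) in the bin from 14450001, with a mean of -0.101. Their limma adjusted p ran from 0.128 to 0.741. A p that misses the threshold does not show that Late and Early are alike here, with SEs of 0.140 to 0.168. The Late libraries were among those that set the position of the locus, where Late was low. Late minus Early is therefore not an independent test of it, with or without a library left out. Without Late replicate 1 the mean over the 7 bins was -0.164, and the bin from 14550001 had -0.583. Without Late replicate 2 the mean was -0.0372, and the bin from 14350001 had -0.42. Both fits called more of all bins than the full fit, so no call is read from them.

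**Figure D2:**
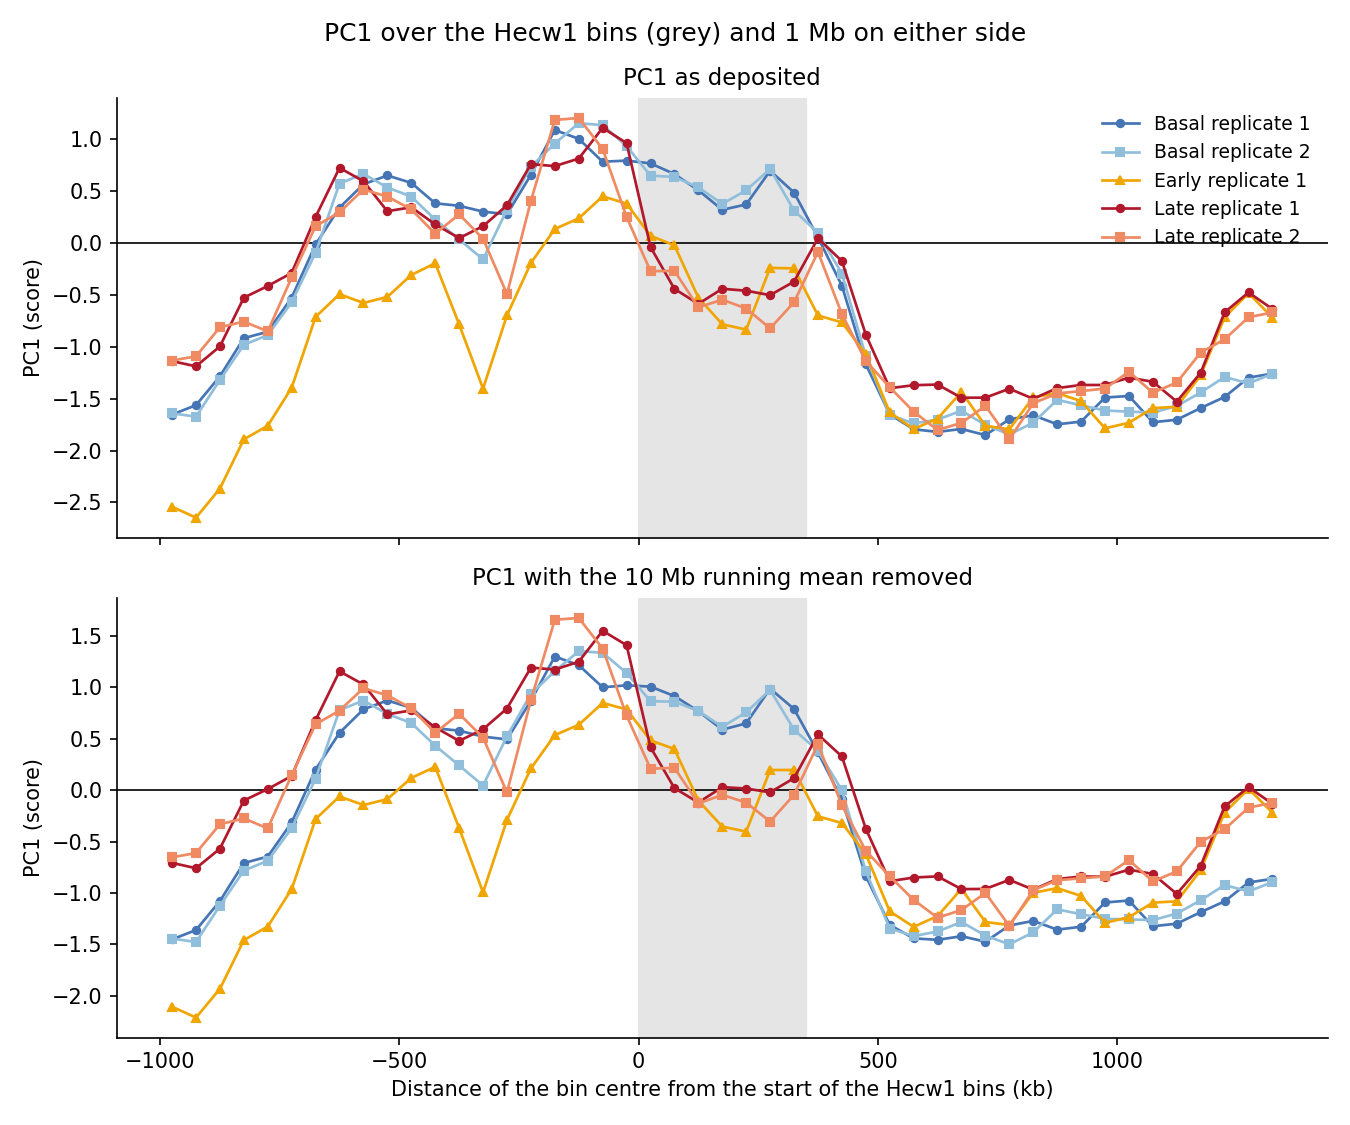
PC1 (vertical axes, a score) of the 47 bins over the Hecw1 locus (grey) and its 1 Mb flanks in each of the 5 libraries, as deposited (top) and with a 10 Mb running mean removed (bottom), by distance of the bin centre from the start of the locus in kb. In the top panel the Late lines start above the Basal lines at the proximal end and come closer to them toward the locus, while the Early line lies below all others in 19 of the 20 proximal bins. In the bottom panel the Late means of both flanks lie above the Basal means. Over the locus the Late lines lie near the Early line in both panels.

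The proximal flank parted Late from Early. Its mean PC1 over 20 bins was 0.0494 and 0.0206 in Basal, -0.864 in Early, with 0.141 and 0.0327 in the Late libraries. Early was below all 4 other libraries in 19 of the 20 bins (28.9% of all bins were). The Late and Basal libraries overlapped in 10 of the 20 bins. In 7, from 13300001 to 13650000, both Late libraries lay above both Basal libraries (30.1% of all bins did), and in 3, from 13750001 to 13900000, below both (31.9% did). In limma 18 of the 20 bins were called lower in Early than in Basal, with a mean difference of -0.899, close to the -0.908 of the locus itself. Between Late and Early, 16 of the 20 were called higher in Late, where 6.28% of all bins were, with a mean difference of 0.951. The largest of these was 1.51 (SE 0.146, limma adjusted p 0.00295), in the bin from 13350001. Between Late and Basal 2 of the 20 were called, both higher in Late, the bins from 13300001 (difference 0.512) and 13350001 (0.478). In that comparison 8.78% of all bins were called higher. Over both flanks the calls rested on the setting. The 22 calls between Early and Basal were 13 with weights by local noise and 8 with all sequences kept as deposited. The 17 calls between Late and Early were 9 with weights and 0 with all sequences kept, where 20 had an unadjusted p under 0.05. Of all 50542 bins in that setting, 6329 higher and 6306 lower in Late had such a p. Over all bins, weights called 7.23% for Early minus Basal and 2.1% for Late minus Early. All sequences kept called 4.12% and 0%.

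Within the proximal flank the bins next to the locus kept the most of their PC1 in Early. The bin from 14200001 had 0.451 in Early against 0.784 and 1.14 in Basal, and the bin from 14250001 had 0.381 in Early against 0.795 and 0.935 in Basal. Neither was called between Early and Basal (limma adjusted p 0.0830 and 0.207). The Early library had its deepest dip inside the flank's A stretch in the bin from 13950001, at -1.40 against 0.303 and -0.157 in Basal. In the Late libraries that bin was at 0.163 and 0.0425.

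The border of the locus with its proximal neighbour was sharp in Late. Between the bin from 14250001, just outside, and the bin from 14300001, just inside, PC1 changed by -0.0266 and -0.285 in Basal, by -0.311 in Early, and by -1.001 and -0.523 in Late. Late replicate 1 had 0.964 outside and -0.0377 inside, and Late replicate 2 had 0.252 outside and -0.271 inside. At the distal border, the step outward of the locus, from the bin at 14600001 into the bin at 14650001, was -0.432 and -0.214 in Basal, -0.454 in Early, with 0.418 and 0.485 in Late. In both Late libraries the Hecw1 bins thus formed a trough with a higher bin on either side, which neither the Basal libraries nor Early had. The borders of the locus lie where the calls of Late minus Basal end. The sharp border and the trough in Late follow in part from that choice and are given as a description.

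The bin just distal of the locus, from 14650001, had a PC1 of 0.0552 and 0.0994 in Basal, -0.698 in Early, with 0.0462 and -0.0853 in Late. It was called lower in Early than in Basal (difference -0.775, SE 0.145, limma adjusted p 0.00859). It was called higher in Late than in Early (difference 0.678, limma adjusted p 0.0226) and not called between Late and Basal (difference -0.0968, limma adjusted p 0.610). The bin just proximal of the locus, from 14250001, was not called between Late and Basal either (difference -0.257, limma adjusted p 0.429). As the borders of the locus lie where such calls end, nothing is read from the missing calls between Late and Basal.

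**Figure D3:**
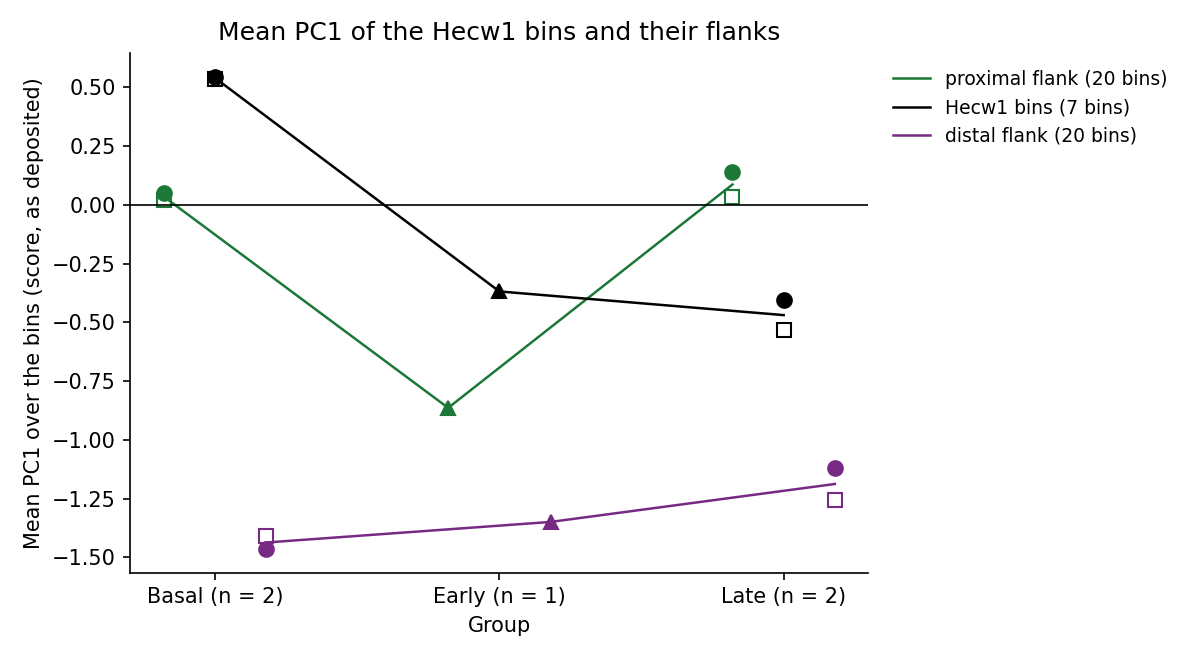
Mean PC1 as deposited (vertical axis, a score) over the 7 Hecw1 bins, the 20 bins proximal and the 20 bins distal, by group (horizontal axis). Filled points are replicate 1 (triangles mark Early), open points replicate 2, and lines join the group means. The proximal flank is low in Early and near its Basal value in Late, while the Hecw1 bins are low in both.

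Setting the locus against its flanks within each library gave a different place to Early on the 2 sides. The Basal libraries had a mean over the Hecw1 bins minus that over the 1 Mb proximal flank of 0.496 and 0.514. The same difference was 0.495 in Early, with -0.547 and -0.565 in the Late libraries. Against the proximal flank Early thus lay beside the Basal replicates, and both Late libraries lay apart by about 1 PC1 unit, with a difference of Late minus Early of -1.05 and of Late minus Basal of -1.06. With a flank of 500 kb the values were -0.0778 and -0.0457 in Basal, -0.131 in Early, with -0.955 and -0.953 in Late. With a flank of 250 kb they were -0.321 and -0.451 in Basal, -0.571 in Early, with -1.28 and -1.32 in Late. Early was nearer to Basal than to Late at each of these widths, but lay further from Basal the narrower the flank. Against the distal flank it was nearer to Late. There the difference was 2.01 and 1.94 in Basal, 0.981 in Early, with 0.712 and 0.724 in Late for a flank of 1 Mb. It was 1.93 and 1.87 in Basal, 1.04 in Early, with 0.697 and 0.814 in Late for 500 kb. For 250 kb it was 1.54 and 1.47 in Basal, 0.823 in Early, with 0.350 and 0.452 in Late. Late was on the same side of Basal against either flank, and Early stood apart from Basal mainly against the distal one, whose own mean differed by 0.0880 for Early minus Basal over 1 Mb. With 1 Early library and a locus chosen from Late and Basal, these differences are given without a test.

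Runs of bins with 1 sign show where the compartment borders lay. In Basal replicate 1 the locus belonged to an A run of 1050 kb, from 13650001 to 14700000. In Basal replicate 2 it belonged to an A run of 700 kb, from 14000001 to 14700000, which a single B bin parted from a further A run of 300 kb. In Early only 250 kb of A were left, from 14100001 to 14350000, and these still held the first Hecw1 bin, while the other 6 opened a B run of 3500 kb. In both Late libraries the A stretch ended at 14300000, the proximal border of the locus. In Late replicate 1 it was a run of 700 kb from 13600001, and in Late replicate 2 a run of 250 kb from 14050001, which 1 B bin parted from a run of 400 kb that began at 13600001. Late replicate 1 had the 7 Hecw1 bins as a B run of their own (350 kb), closed by 1 A bin at 14650001, and in Late replicate 2 they opened a B run of 3500 kb. All 4 Basal and Late libraries thus had A from 13650001 or before, and differed in its distal end. The locus was chosen from Late and Basal, so that last difference is a description.

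The distal flank was mostly deep B in every library. Its mean PC1 was -1.46 and -1.41 in Basal, -1.35 in Early, with -1.12 and -1.26 in Late. In the 15 bins from 14750001 to 15500000 no library was above -0.882. Of these 15, limma called none in any of the 3 comparisons, and at an unadjusted p under 0.05 it had 0 for Early minus Basal, 2 for Late minus Early and 5 for Late minus Basal. Of all 47652 bins, 7333 higher and 7516 lower in Late than in Early had such a p. Between Late and Basal, 7929 higher and 7516 lower in Late did, so nothing is read from these counts. The last 3 bins, from 15500001 to 15650000, had means of -1.35 and -1.30 in Basal, -0.639 in Early, with -0.593 and -0.770 in Late. All 3 were called higher in Early than in Basal (9.97% of all bins were) and higher in Late than in Basal, and none between Late and Early (0 at an unadjusted p under 0.05). About 1 Mb from Hecw1, Early and Late therefore lay above Basal together, in the direction opposite to that of the locus.

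Removing a 10 Mb running mean, which takes away shifts that run over a large part of the chromosome, kept the direction of the difference and changed the level. That running mean at the locus was itself lower in Early and Late, at -0.268 and -0.241 in Basal, -0.428 in Early, with -0.471 and -0.501 in Late. With it removed, the mean of the 7 bins was 0.814 and 0.775 in Basal, 0.0595 in Early, with 0.0651 and -0.0316 in Late. On average the locus therefore stood well above its surroundings in Basal and about level with them in Early and Late. Early was negative in the bins from 14400001, 14450001 and 14500001, at -0.101, -0.355 and -0.403, and positive in the others. The Late mean was negative in these and in the bin from 14550001, where it was lowest at -0.163, and positive in the others. On this scale the middle of the locus thus passed to the negative side, and its ends did not. The difference of Late minus Basal was -0.778 and that of Early minus Basal -0.735.

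On the detrended scale 4 of the 7 Hecw1 bins were called lower in Early than in Basal, where 5.71% of all bins were. They were the bins from 14400001 to 14600000, with differences from -0.785 to -1.11. The other 3, from 14300001, 14350001 and 14600001, had differences of -0.451, -0.488 and -0.492 (limma adjusted p 0.0895, 0.0648 and 0.0723). Without Late replicate 1, and without Late replicate 2, all 7 were called, and with weights by local noise 1 was. In the proximal flank 13 of 20 bins were called lower in Early than in Basal. Weights by local noise left 0.554% of all bins called in this comparison, in either direction. No Hecw1 bin was called between Late and Early, where 7.0% of all bins were, and 2 had an unadjusted p under 0.05. Of all 47652 bins, 6338 higher and 6221 lower in Late had such a p. The proximal flank had 16 of 20 called higher in Late than in Early, where 3.65% of all bins were. With weights by local noise 0 of the 47652 bins were called between Late and Early, so these flank calls rest on the setting. Between Late and Basal all 7 Hecw1 bins were called lower (5.61% of all bins were), which the choice of the locus fixes. Without Basal replicate 1 fewer of them were called, and fewer of all bins were. In that comparison the flanks lay the other way, with 6 of 20 proximal and 10 of 20 distal bins called higher in Late, where 6.34% of all bins were.

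**Figure D4:**
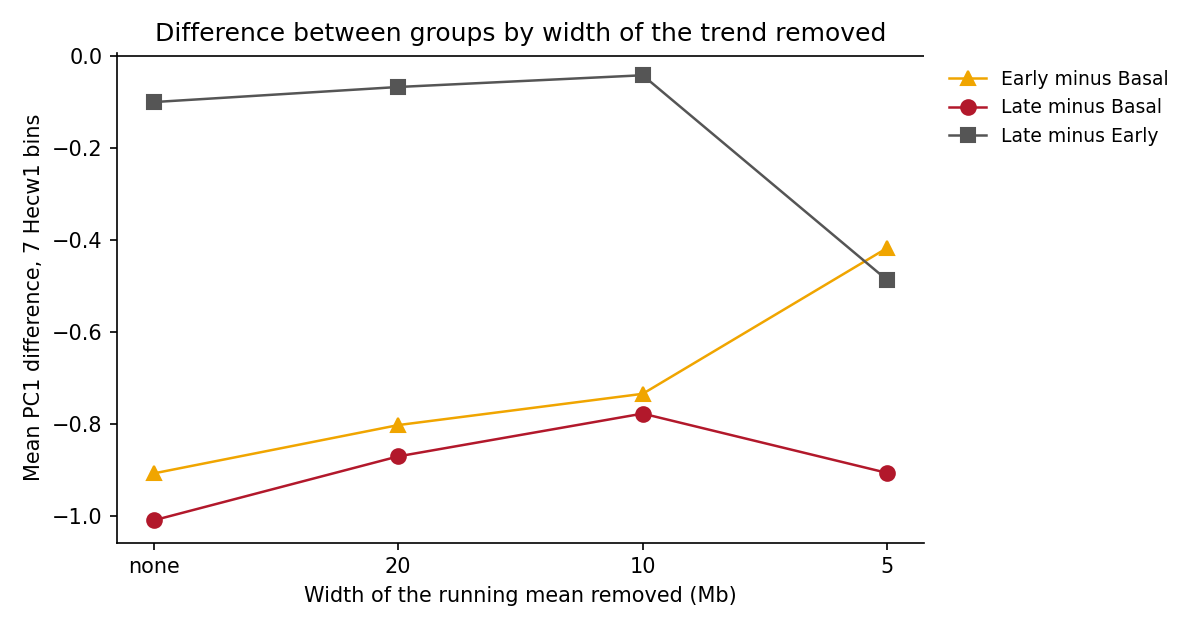
Mean difference in PC1 over the 7 Hecw1 bins (vertical axis, PC1 units) for Early minus Basal, Late minus Basal and Late minus Early, by the width of the running mean removed (horizontal axis, Mb, with none on the left). Late minus Basal lies between -0.778 and -1.01 at every width. Early minus Basal shrinks to -0.418 at 5 Mb, where Late minus Early reaches -0.488.

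The width of the trend parted Early from Late. Early minus Basal was -0.803 with a 20 Mb running mean removed, -0.735 with 10 Mb and -0.418 with 5 Mb. Late minus Basal was -0.871, -0.778 and -0.907 at the same widths. Late minus Early, -0.101 as deposited, was -0.488 with 5 Mb removed, and 2 of the 7 bins were then called lower in Late, those from 14350001 and 14550001. Of all 47652 bins, 833 were called lower in Late at that width. The locus was chosen where Late was low, so these calls are no independent test.

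The 5 stretches of 7 neighbouring bins whose mean PC1 over the 5 libraries was closest to that of Hecw1 were taken over all analysed chromosomes, more than 2 Mb from the locus, by root mean square difference. They were on X at 38.30 to 38.65 Mb (0.0698), X at 40.10 to 40.45 Mb (0.0734), chromosome 16 at 7.60 to 7.95 Mb (0.106), X at 58.10 to 58.45 Mb (0.112) and X at 40.50 to 40.85 Mb (0.132). The chromosome 16 stretch had a PC1 of 0.458 and 0.348 in Basal, -0.42 in Early, with -0.337 and -0.45 in Late. It was the only one of the 5 on an autosome. For the X stretches, sex and state cannot be told apart, since the sex of the mice is not labelled.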

How the data were processed

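The authors deposited PC1 as a signed score, given per bin of 50 kb and computed in windows of 100 kb with HOMER on mm9, per the submitters' processing notes and the file headers. The aligner, read filters, tool versions and setting of the sign were not given in the sources used here. Depth is unknown, as the tables list scores alone. Chromosomes were kept where every pair of libraries correlated over bins at a Pearson r of at least 0.5, which left out chromosome 7 and gave 47652 bins on 18 autosomes and X. The lowest r on chromosome 7 was -0.976, so PC1 ran with opposite sign between libraries there. That sign was not corrected where all sequences were kept as deposited. On chromosome 13 PC1 had an SD of 1.00 in each library, so the strength of compartments cannot be compared.

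Bins were compared with limma 3.58.1 in R 4.3.3, with all 5 libraries in 1 fit (2 residual degrees of freedom, 6.6 from the prior), 2-sided, and Benjamini-Hochberg adjustment over all bins. The fit was tested on simulated data with independent bins and the same noise in every library. That check does not cover the higher noise of Early or the reads that neighbouring bins share. P-values measure the spread between libraries, which may be technical. Python 3.11.15, numpy 2.4.6 and pandas 2.3.3 were used for the rest. The running mean was centred and taken per chromosome and library. The locus, the lists and the tests were chosen with earlier results of these data known. Each of the 7 bins, the genes next to Hecw1 and the 5 most alike stretches were named by rule. The other genes of the Nedd4 family were to be described as well, but they are not analysed here, since no annotation of mm9 was used. No promoter sequence of Hecw1 was used here. Same-numbered Basal and Late libraries did not deviate together (r = 0.010 over all bins), so replicate numbers were not taken as pairs. Alternatives were other scalings, sets of bins, library weights, running means and leaving out each library.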

Additional observations from a re-analysis of the deposited data

How the results depend on the processing

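The mean difference of Early minus Basal over the 7 Hecw1 bins (-0.908) was -0.981 with quantile-normalized values, -1.07 with chromosome medians aligned, and -0.803, -0.735 and -0.418 with a 20, 10 and 5 Mb running mean removed. Late minus Basal (-1.01) was -0.871, -0.778 and -0.907 with those running means removed. Late minus Early (-0.101) was 0.0379 with chromosome medians aligned and -0.488 with a 5 Mb running mean removed. Early minus Basal and Late minus Basal were negative in each of these settings. Leaving out 1 library at a time gave -0.914 to -0.902 for Early minus Basal, -1.07 to -0.945 for Late minus Basal and -0.164 to -0.0372 for Late minus Early.

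Called Hecw1 bins for Early minus Basal (7) were 4 with a 10 Mb running mean removed, 3 with 5 Mb, 3 with all sequences as deposited, 4 with weights by local noise and 4 to 7 with 1 library left out. For Late minus Early (0) they were 2 with a 5 Mb running mean removed and 0 to 1 with 1 library left out. For Late minus Basal (7) they were 0 with all sequences as deposited (7 at an unadjusted p under 0.05 in limma) and 7 with 1 library left out. Called flank bins for Early minus Basal (22) were 7 with a 5 Mb running mean removed, 8 with all sequences as deposited, 13 with weights and 16 to 25 with 1 library left out. For Late minus Early (17) they were 8 with a 5 Mb running mean removed, 0 with all sequences (20 at an unadjusted p under 0.05 in limma), 9 with weights and 16 to 22 with 1 library left out. With the 10 Mb mean removed, Early minus Basal called 1 Hecw1 bin with weights and 3 to 7 with 1 library left out, Late minus Early 0 to 1, and Late minus Basal 4 to 7, the 4 without Basal replicate 1. The cause was not tested, except that keeping all sequences leaves the differences as they are and acts through the shared variance and the number of bins adjusted for. It brings back left-out bins, chromosome 7 among them, with 2.58 prior degrees of freedom instead of 6.6. It called 4.12% of all 50542 bins for Early minus Basal, and 0 for Late minus Early and Late minus Basal. Weights called 7.23%, 2.1% and 22.4% of all bins in that order, and a 5 Mb running mean removed 7.08%, 3.78% and 6.99%. With a replicate block 7 Hecw1 bins were called for Early minus Basal, 0 for Late minus Early and 7 for Late minus Basal, and, with the 10 Mb mean removed, 6, 0 and 7. Of all bins the block called 20.1%, 12.2% and 18.4% in that order, and 16.6%, 10.7% and 18.2% with the 10 Mb mean removed. With the 10 Mb mean removed and weights, 0 of the 47652 bins were called for Late minus Early, flanks included. The alternatives on values with the 10 Mb mean removed were chosen after seeing the data.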
